A study of Homo sapiens with 24 samples.

Results

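The genes described here encode RNA polymerase II (Pol II), the enzyme that transcribes protein-coding genes, and Mediator, the large coactivator complex that works with it at promoters. They were chosen by name as the protein-coding genes whose symbol starts with POLR2, or with MED and a digit, together with CCNC, CDK8, and CDK19. This rule found 49 gene records with 48 symbols among 20098 protein-coding genes, since POLR2J3 has 2 records. The question was at which of these promoters Flag-tagged S100A8 and S100A9 were found on chromatin, and whether this differed between the proteins or with treatment.

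All cells were MCF10A breast epithelial cells that express ER-Src, a fusion of the v-Src oncoprotein to the ligand-binding domain of the estrogen receptor. Each stable line, made with a retroviral vector, also expressed either S100A8-Flag or S100A9-Flag, which are calcium-binding proteins of the S100 family. Cells received 1 µM 4-hydroxytamoxifen (TAM), which activates ER-Src and transforms the cells, or the vehicle ethanol (EtOH), for 24 hours, and chromatin was precipitated with a Flag antibody (ChIP-seq). The 11 libraries analyzed are biological replicates, 3 for each protein and treatment except S100A8-Flag with EtOH, which has 2. The tag sits on an introduced protein in cells that also make the endogenous protein, so the peaks report the tagged molecules.

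A gene was called in a library when a peak with q ≤ 1e-07 (a −log10 q of at least 7) had its summit in the promoter window, which runs from −1500 to +250 bp around each transcription start site (TSS) of the gene. The lists hold 1853 to 4609 such peaks per EtOH library and 21518 to 40735 per TAM library. The deposited peak lists give no read counts, so depth is unknown, and fewer calls from weaker binding and fewer calls from lower depth cannot be told apart. As a check of the labels, peaks in coding exons of S100A9 were present in 6 of 6 S100A9-Flag libraries and 1 of 5 S100A8-Flag libraries, whereas coding exons of S100A8 had none in any library, so the S100A8-Flag label was not checked in this way.

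Pol II is built from a catalytic core, a stalk, and small subunits, some of which are shared with RNA polymerases I and III. Mediator is divided into a head and a middle module that contact Pol II, a tail that is contacted by many DNA-binding activators, and a separable kinase module that holds CDK8 or CDK19 with cyclin C. Genes of this machinery are expressed in essentially all cells.

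The DNA under these peaks is shown for POLR2A and for the most often called gene of several groups, to show what kind of promoter sequence lay at the summits. Each stretch is 101 bases of hg19 (GRCh37) on the coding strand of the gene, around the summit of its highest-ranked TAM peak. Capitals mark matches to CGGAAG, the core letters of ETS factor sites, or to CCCCGCCC, the letters of KLF/SP1 sites, on either strand. The POLR2A and CDK19 stretches were moved upstream so as to hold no more than 30 exonic bases.
POLR2A, chr17:7387614-7387714, plus strand: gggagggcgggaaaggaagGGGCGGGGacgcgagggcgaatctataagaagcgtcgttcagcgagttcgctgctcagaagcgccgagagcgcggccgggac
POLR2I, chr19:36605766-36605866, minus strand: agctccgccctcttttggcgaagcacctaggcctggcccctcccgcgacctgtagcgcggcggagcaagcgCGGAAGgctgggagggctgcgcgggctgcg
MED4, chr13:48669263-48669363, minus strand: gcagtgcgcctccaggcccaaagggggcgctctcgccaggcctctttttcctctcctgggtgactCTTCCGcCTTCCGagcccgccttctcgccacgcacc
MED20, chr6:41888853-41888953, minus strand: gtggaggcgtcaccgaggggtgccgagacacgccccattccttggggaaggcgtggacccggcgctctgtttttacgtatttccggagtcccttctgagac
MED23, chr6:131949417-131949517, minus strand: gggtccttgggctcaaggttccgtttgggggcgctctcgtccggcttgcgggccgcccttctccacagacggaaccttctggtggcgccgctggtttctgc
CDK19, chr6:111136811-111136911, minus strand: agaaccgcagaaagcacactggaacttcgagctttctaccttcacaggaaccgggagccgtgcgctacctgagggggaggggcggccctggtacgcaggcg

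MED4 holds a pair of ETS matches side by side, POLR2I holds an ETS match, and the stretches of MED20, MED23, and CDK19 hold neither motif. All of these stretches are rich in G and C.

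In TAM, most Pol II and Mediator promoters carried peaks of S100A8 and most carried peaks of S100A9, and in EtOH few carried either. A peak in at least 2 replicates was found at 30 of 49 genes for S100A8 in TAM and at 32 of 49 for S100A9 in TAM, where 36.7% and 43% of all protein-coding genes had one. Both proteins met this rule in TAM at 24 of 49 genes, against 31.4% of all genes. In EtOH the counts were 4 of 49 for S100A8 and 2 of 49 for S100A9, against 4.61% and 5.69% of all genes. The S100A9 EtOH count was 1 without replicate 2 or 3 and 0 without replicate 1. As shares, S100A8 EtOH had 8.16%, above its background, and S100A9 EtOH had 4.08%, below its background, both from few genes. The TAM shares of 61.2% for S100A8 and 65.3% for S100A9 are above their backgrounds. The counts depend on the rule. With q ≤ 1e-10 the TAM counts were 19 for S100A8 and 23 for S100A9, and from the 5′ end of each gene alone 20 and 25. The mean TAM share in these settings was 45.2% and 48.6%, against 27.4% and 29.9% of all genes. With every listed peak the EtOH counts were 16 and 25, and the mean EtOH share was 50.6%, against 33.4%.

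Counted by library, 10 and 11 of the 49 genes were called in the S100A8 EtOH replicates and 4, 3, and 5 in the S100A9 EtOH replicates. The TAM libraries called 31, 28, and 26 genes for S100A8 and 30, 30, and 38 for S100A9. Every TAM library thus called more of these genes than any EtOH library. The mean share of the 49 genes was 13.5% ± 7.44 (SD) over the 5 EtOH libraries and 62.2% ± 8.34 (SD) over the 6 TAM libraries, whereas all protein-coding genes had 10.1% ± 2.48 and 39.0% ± 5.43.

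The ratio of the share among Pol II and Mediator genes to the share among all genes was nearly the same in the 6 TAM libraries, from 1.58 to 1.63. It was 1.80 and 1.85 in the S100A8 EtOH libraries but only 0.831 to 1.03 in the S100A9 EtOH libraries. The contrast between the proteins in EtOH was not seen under the loosest q threshold. When every peak in the lists was counted, down to a q of 0.05, the mean ratio was 1.46 for S100A8 EtOH and 1.56 for S100A9 EtOH, and the shares of these genes were 51.0% ± 2.89 (SD, n = 2) and 50.3% ± 12 (SD, n = 3). The direction of the contrast was kept in the other settings tried, with mean ratios of 1.75 and 0.228 at q ≤ 1e-10, and of 1.66 and 0.850 for the 1853 top peaks of each library. These ratios rest on few calls. At q ≤ 1e-10 the S100A9 EtOH libraries held only 1 call of these genes, at MED23. With the 1853 top peaks, 3 and 6 genes were called in the S100A8 EtOH replicates and 2, 3, and 2 in the S100A9 EtOH replicates. Of the 124 cases of a gene with a promoter peak in an EtOH library, only 33 passed the threshold, whereas 183 of 250 such cases did in TAM. These are 26.6% and 73.2%, near the 30.3% and 67.8% for all protein-coding genes.

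The rise with TAM was much smaller in lists of equal length, a setting that removes any overall gain in peaks by design. The cause of the rise was not tested by it. When each library was reduced to its 1853 strongest peaks by q value, the length of the shortest list, the mean share of the 49 genes became 6.53% ± 3.35 (SD, n = 5) with EtOH and 8.84% ± 4.22 (SD, n = 6) with TAM, and the libraries of the treatments overlapped. All protein-coding genes then had 5.57% in EtOH and 4.61% in TAM.

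**Figure D1:**
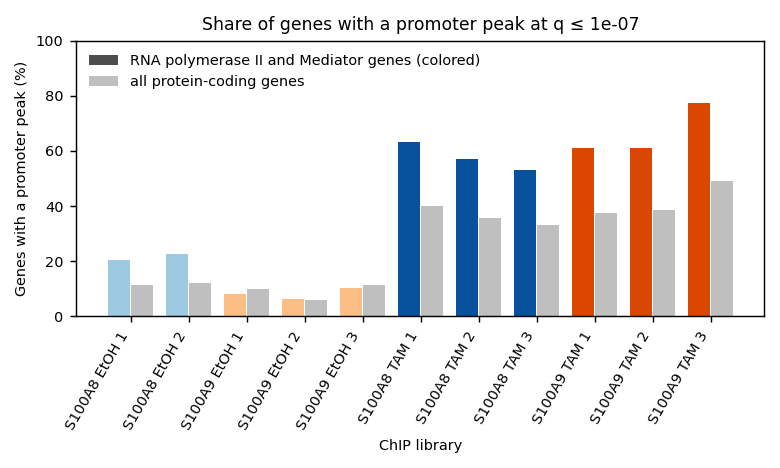
Share of genes (vertical axis, percent) with a promoter peak at q ≤ 1e-07 in each of the 11 libraries, colored for the 49 Pol II and Mediator genes and gray for all 20098 protein-coding genes. The colored bars stand above the gray ones in all 6 TAM libraries and both S100A8 EtOH libraries, but not clearly so in the S100A9 EtOH libraries.

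Per gene, calls in TAM and EtOH libraries were compared by an exact permutation test (two-sided, treatment permuted within each protein), over the 10794 genes called in at least 2 libraries, 42 of them Pol II or Mediator genes. With 200 arrangements the smallest p is 0.01, and after Benjamini-Hochberg adjustment no gene passed 0.05 in either direction (0% of all genes, lowest adjusted p = 0.190). At an unadjusted p under 0.05, 11 of 42 of these genes were more often called in TAM, against 21% of all genes tested, which is near the background. The tested difference, which is the mean over both proteins of the share of libraries called in TAM minus that in EtOH, was above 0 for 40 of 42 of these genes and 0 for MED18 and MED12, and above 0 for 95.6% of all genes tested.

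The alternative test, limma on log2 fold enrichment over input with 0 where no peak was listed, had 14 of 42 of these genes higher in TAM at an adjusted p of at most 0.05, against 25.4% of genes tested, and none lower. The largest differences on this log2 scale were in MED27 (3.20 ± 0.35, SE, adjusted p = 0.00031), MED31 (2.78 ± 0.46, SE, adjusted p = 0.0017), and POLR2E (2.63 ± 0.56, SE, adjusted p = 0.0083). The other 11 were MED28, MED15, MED19, MED8, POLR2D, MED29, MED13, MED26, MED16, CCNC, and POLR2B, and 7 genes were found both here and by the exact test at an unadjusted p under 0.05. As fold enrichment is scaled within each library, these differences describe the lists and share their limits. A promoter peak was listed in 0 EtOH libraries for MED27 and in 1 each for MED31 and POLR2E. The other EtOH values of these genes were the 0 set for no peak, so the SE and adjusted p do not measure spread among EtOH libraries.

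In all, 46 of 49 genes were called in at least 1 library, against 61.1% of all genes, the other 3 (POLR2J, POLR2J2, and MED11) were called in none, against 38.9%, and none of the 49 was called in all 11 libraries, against 0.488%. A call in all 6 TAM libraries was found for 13 genes, against 13.9%, and 2 of them, MED27 and MED31, had no EtOH call, against 2.83%. Without S100A8 EtOH replicate 2 there were 5 such genes, and without S100A8 TAM replicate 2 there were 4. Of the 22 genes called in an EtOH library, all were also called in TAM, as were 98.5% of all genes called in EtOH, and 11 (50%, against 38.0%) were called in all 6 TAM libraries.

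**Figure D2:**
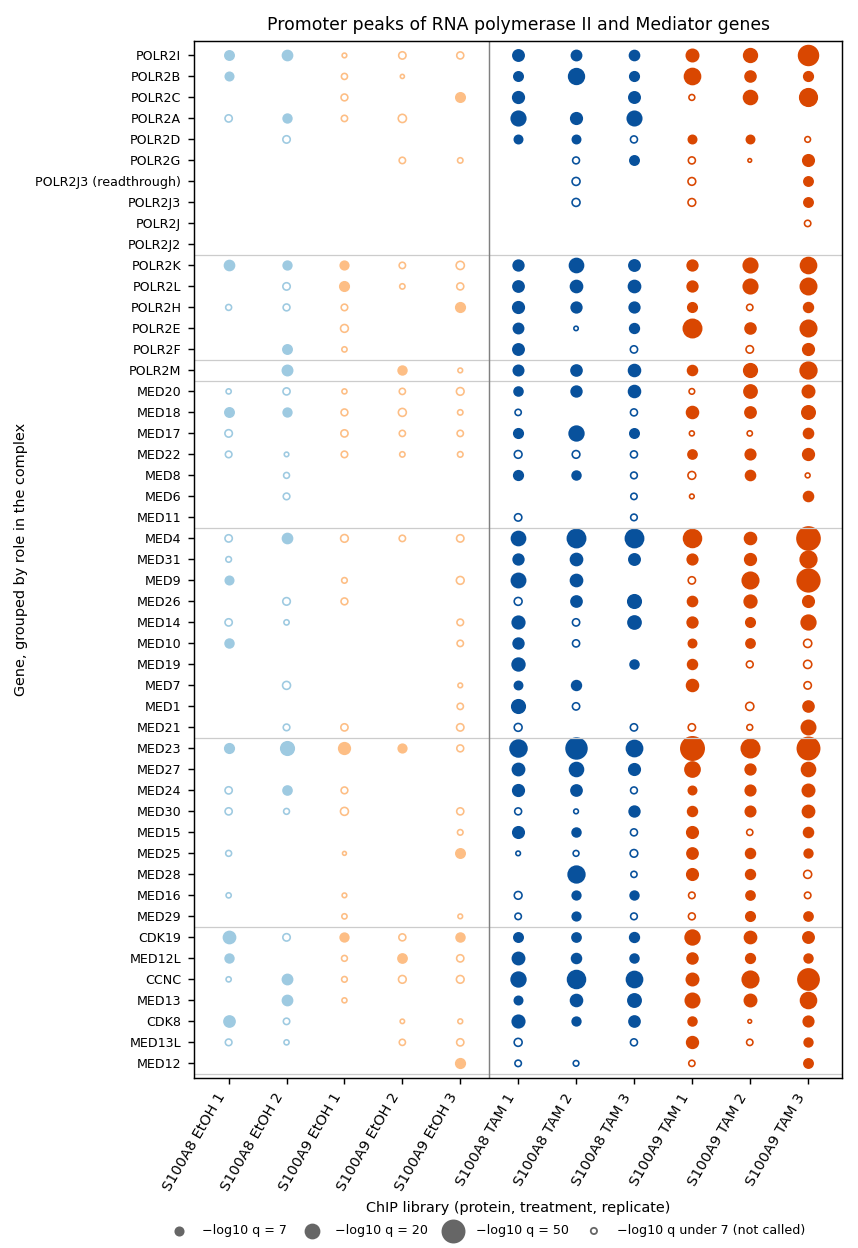
Promoter peaks of each of the 49 gene records (rows, grouped by role with gray lines) in each of the 11 libraries (columns), where the area of a circle gives the −log10 q of the strongest peak in the window. Filled circles are called peaks (−log10 q of at least 7), open circles are weaker peaks, and no circle means that no peak was listed. Filled circles are mostly to the right of the vertical line, in TAM.

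The subunits found only in Pol II were called at a mean of 10% ± 10 (SD, n = 5) of the 10 records in EtOH and 45.0% ± 10.5 (SD, n = 6) with TAM. Without the 4 records of POLR2J, POLR2J2, and POLR2J3, treated below, the other 6 genes had 16.7% ± 16.7 and 69.4% ± 12.5. POLR2I, a zinc-ribbon subunit that acts in transcript cleavage, led with 2 EtOH and 6 TAM calls. With the 5′ end of the gene alone as TSS it did not lead. POLR2I then had 0 EtOH and 2 TAM calls, POLR2B and POLR2D had 0 and 4 each, and POLR2C had 1 and 4. POLR2B, the second-largest subunit, which forms the active center together with POLR2A, had 1 EtOH and 6 TAM calls.

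For POLR2B, the fold enrichment of the promoter peak was 7.47, 14.3, and 5.98 in the S100A8 TAM replicates and 15.9, 9.90, and 7.46 in the S100A9 TAM replicates. Its EtOH peaks were 7.04 and none for S100A8, and 5.68, 4.46, and none for S100A9, of which only the first passed the threshold. POLR2B was therefore called in all TAM libraries and 1 EtOH library (exact permutation test, two-sided, p = 0.04, adjusted p = 0.191). The strongest TAM peak had its summit between −28 and −13 bp from a TSS in 3 libraries and at −593, −703, and −1234 bp in the others. All 6 TAM libraries, the latter included, had a peak that passed the q threshold at 1052 to 1129 bp from the first TSS. The gene has 5 annotated protein-coding TSSs and starts 116 bp from that of NOA1, on the opposite strand.

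POLR2C, an assembly subunit, had 1 EtOH and 4 TAM calls. POLR2D and POLR2G, which pair to form the stalk, had 0 EtOH calls each, with 4 TAM calls for POLR2D and 2 for POLR2G. The 4 calls of POLR2D all lay at the threshold, with a −log10 q from 7.02 to 7.13, and each would be lost at a slightly stricter threshold.

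POLR2J3 had 0 EtOH calls and 1 TAM call, from the same peak for both of its records, and POLR2J and POLR2J2 had 0 EtOH and 0 TAM calls. These 3 genes are near-identical copies of one subunit gene on chromosome 7, and only uniquely mapped reads were kept upstream, so their empty promoters are uncertain.

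POLR2A, the catalytic subunit with the C-terminal repeat domain, was the one gene of the 49 called in all S100A8 TAM libraries and no S100A9 TAM library, a pattern of 0.174% of all genes. In the S100A8 TAM replicates its peak had a fold enrichment of 10.4, 8.21, and 12.9 and a −log10 q of 21.6, 13.6, and 21.4, with summits at +5, −6, and +18 bp from the TSS. In EtOH the peak was called in S100A8 replicate 2 (fold enrichment 7.49), lay below the threshold in S100A8 replicate 1 (6.06) and in S100A9 replicates 1 and 2 (5.87 and 7.47), and was not listed in S100A9 replicate 3.

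The S100A9 TAM libraries nevertheless have peaks over the start of POLR2A. They are 799, 1027, and 894 bp wide, each spans the TSS, and their fold enrichment was 9.95, 10.2, and 7.84 with a −log10 q of 14.7, 14.6, and 18.3. Their summits lie 333, 460, and 527 bp downstream of the TSS, outside the promoter window. The libraries of the proteins thus differed in where the summit was placed, not in whether a peak covered the TSS. With overlap of the peak and the window in place of the summit, POLR2A was called in all 6 TAM libraries and 1 EtOH library.

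A summit in this downstream position was not particular to S100A9, since separate peaks with a −log10 q above 7 had summits at 356 bp in S100A8 EtOH replicate 2, at 509 bp in S100A8 EtOH replicate 1, and at 514 bp in S100A8 TAM replicate 2. The comparison of the proteins by summit gave p = 0.04 for POLR2A in the exact permutation test (two-sided, adjusted p = 1), and limma gave an adjusted p of 0.928. The TSS of ZBTB4, on the other strand, is 103 bp from that of POLR2A, and 2 of the 4 called POLR2A peaks also counted for it.

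MED11, a head subunit, likewise had peaks just past the window, with 0 EtOH and 0 TAM calls by summit. Its strongest peaks had summits 328 to 439 bp downstream of its first TSS, and by overlap with the window it was called in 2 EtOH and 3 TAM libraries. Between them, POLR2A and MED11 account for all 8 library calls that overlap added for the 49 records. The width of the window mattered for other genes too. With summits within 500 bp of a TSS, MED13 had 1 TAM call in place of 6, and single calls of POLR2C, POLR2L, MED16, and MED17 were lost or gained.

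**Figure D3:**
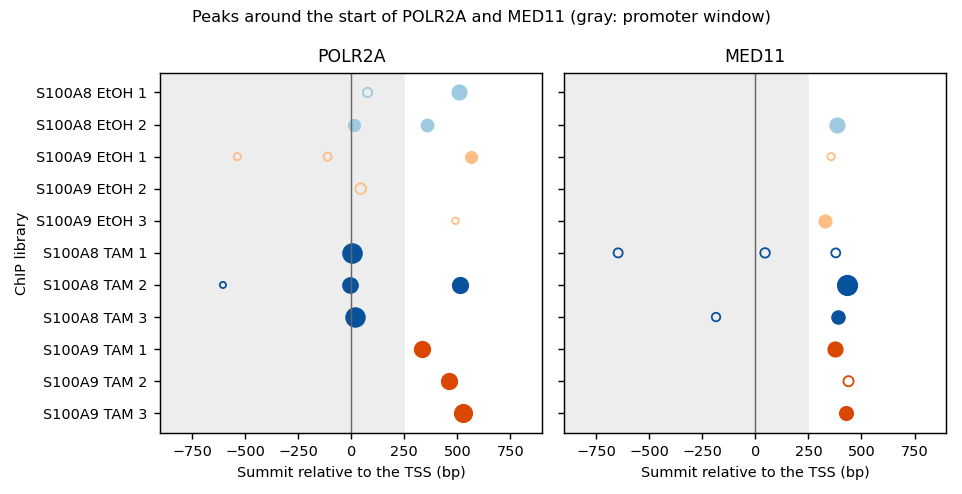
Summit positions of peaks (horizontal axis, bp from the first TSS, downstream positive) around POLR2A and MED11 in each of the 11 libraries (vertical axis), with circle area proportional to −log10 q and filled circles for a −log10 q of at least 7. Gray marks the promoter window up to 250 bp, which the POLR2A summits of the 3 S100A9 TAM libraries lie beyond, at 333 to 527 bp.

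The 5 subunits shared with the other polymerases had a mean of 24.0% ± 16.7 (SD, n = 5) with EtOH and 80.0% ± 17.9 (SD, n = 6) with TAM. POLR2K, the smallest zinc-binding subunit, had 3 EtOH and 6 TAM calls, with summits between −35 and +29 bp from its TSS. POLR2L, which helps to hold the core together, had 1 and 6, POLR2H had 1 and 5, POLR2E had 0 and 5, and POLR2F had 1 and 2. In POLR2L, 6 of 7 called peaks also fell in the promoter window of TSPAN4, which starts 283 bp away on the opposite strand, and the summits of its strongest peaks ranged from −1489 to +13 bp. POLR2M, which encodes the Pol II-associated protein Gdown1 rather than a core subunit, had 2 EtOH and 6 TAM calls.

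In the Mediator head, 5.71% ± 7.82 (SD, n = 5) of the 7 genes were called in EtOH and 45.2% ± 16.7 (SD, n = 6) with TAM. MED17, the central head subunit, had 0 EtOH and 4 TAM calls, and MED20 had 0 and 5. MED18, the partner of MED20, had 2 EtOH and 3 TAM calls, which for S100A8 were 2 of 2 in EtOH and 0 of 3 in TAM, and for S100A9 were 0 of 3 in EtOH and 3 of 3 in TAM. Whether its change with treatment differed between the proteins was not tested. MED22, the partner of MED11, had 0 EtOH and 3 TAM calls. MED8 had 0 and 3, and MED6 had 0 and 1. No head gene was called in all 6 TAM libraries or in any S100A9 EtOH library.

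MED18 and MED22 belong, with the tail gene MED25, to the 3 genes called in all S100A9 TAM libraries and no S100A8 TAM library, against 0.831% of all genes. For MED22, the fold enrichment in TAM was 8.04, 8.70, and 7.14 for S100A9 and 6.39, 6.41, and 5.82 for S100A8, and peaks were listed in all 11 libraries. The S100A8 TAM peaks of MED22 had a −log10 q of 6.13, 6.04, and 5.04, just under the threshold, and those of S100A9 had 8.47, 11.4, and 13.8. By the strongest peak in the promoter window the groups did not overlap in TAM, but the absence of S100A8 calls was one of degree. These peaks differ in position. The S100A9 TAM replicate 1 summit lay 628 bp from the first TSS, and its peak over that TSS had only 3.22, below the S100A8 values. S100A8 TAM replicate 2 also had a peak of 9.03 at 1062 bp, which was not counted as a promoter peak. The MED22 peaks also counted for RPL7A, a ribosomal protein gene that starts 87 bp away on the other strand.

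For MED25, a tail subunit contacted by the viral activator VP16, the fold enrichment in TAM was 7.87, 8.92, and 5.29 for S100A9 and 3.55, 4.91, and 5.90 for S100A8. Its EtOH values were 5.08 and none for S100A8, and 3.86, none, and 8.19 for S100A9, the last of which was called. The fold enrichments of the proteins overlapped in TAM, although the calls did not. MED25 had the largest excess of S100A9 calls among the 49 genes, a share of libraries 0.667 higher averaged over the treatments (exact permutation test, two-sided, p = 0.06, adjusted p = 1).

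Next in size, with equal differences of 0.5 in opposite directions, were MED22 (p = 0.1) and POLR2I (p = 0.2, both adjusted p = 1, exact permutation test, two-sided). For POLR2I, the S100A8 EtOH replicates had a fold enrichment of 6.88 and 8.84, both called, and the S100A9 EtOH replicates had 4.20, 7.06, and 6.0, none called. In TAM, POLR2I had 9.98, 7.22, and 6.95 for S100A8 and 10.2, 12.2, and 14.9 for S100A9, so that the proteins were ordered one way by calls in EtOH and the other way by enrichment in TAM. No gene of the 10794 differed between the proteins at an adjusted p of at most 0.05 in the exact test (0% in either direction). At an unadjusted p under 0.05 POLR2A was one of the 8 genes lower with S100A9, 0.0741% of those tested, and 0 of 42 were among the 6 that were higher, 0.0556%. By limma 3 genes differed, 2 higher (0.0185%) and 1 lower (0.00926%), none of them a Pol II or Mediator gene.

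In EtOH, the S100A8 libraries together called 17 of the 49 genes at least once, against 18.9% of all genes, and the S100A9 libraries called 10, against 20.4%. Of these genes, 12 were called for S100A8 only, against 8.56%, 5 for S100A9 only, against 10.1%, and 5 for both, against 10.3%. The S100A8 count stands above its background although it comes from 2 libraries and that of S100A9 from 3. As given above, this difference was not seen when every listed peak was counted.

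The middle module, taken with the scaffold subunit MED14, had 6% ± 8.94 (SD, n = 5) of its 10 genes called in EtOH and 63.3% ± 12.1 (SD, n = 6) with TAM, and none in any S100A9 EtOH library. MED4 had 1 EtOH and 6 TAM calls, and its peak in S100A9 TAM replicate 3, over the sequence shown, had a fold enrichment of 20.2 and a −log10 q of 54.3. MED9, which binds MED4, had 1 and 4. Its fold enrichment of 24.2 in S100A9 TAM replicate 3 was the highest of any called peak of the 49 genes, yet no MED9 peak was listed in S100A8 TAM replicate 3.

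MED31, a small conserved middle subunit, was called in all 6 TAM libraries and no EtOH library. Its fold enrichment was 9.51, 10.3, and 8.35 in the S100A8 TAM replicates and 8.88, 9.68, and 11.8 in the S100A9 TAM replicates. The only EtOH peak, in S100A8 replicate 1, had a fold enrichment of 4.78 and a −log10 q of 3.27. These groups did not overlap. By the two-sided exact permutation test p was 0.01, the lowest value possible here (adjusted p = 0.190). Every gene called in all TAM and no EtOH libraries has this p, so it restates the pattern for which MED31 was chosen. Every MED31 peak also counted for C17orf100, which starts 128 bp away on the opposite strand.

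MED26, which docks elongation factors, had 0 EtOH and 5 TAM calls, and MED14 had 0 and 5. MED10 had 1 and 3, MED19 had 0 and 3, and MED7 had 0 and 3. MED1, the main contact of nuclear receptors, had 0 and 2, and MED21, the partner of MED7, had 0 and 1. The MED14 summits lay at −408 to −230 bp from the nearest TSS, farther than those of most of these genes.

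Of the tail genes and their neighbors at the border with the head, 13.3% ± 4.97 (SD, n = 5) of 9 were called in EtOH and 68.5% ± 19.1 (SD, n = 6) with TAM. MED23, a tail subunit contacted by the ETS-family factor ELK1, was the most often called of the 49 genes, with 4 EtOH and 6 TAM calls. Its fold enrichment was 8.03 and 13.7 in the S100A8 EtOH replicates, 10.9, 7.87, and 4.59 in the S100A9 EtOH replicates, 12.7, 16.7, and 9.36 in the S100A8 TAM replicates, and 22.3, 18.1, and 15.9 in the S100A9 TAM replicates. The one library that missed it, S100A9 EtOH replicate 3, had a peak with a −log10 q of 4.87. All 10 called peaks also counted for ENPP3, which starts 219 bp away on the opposite strand, so that the peak cannot be assigned to either gene alone.

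MED27, at the border of head and tail, showed the clearest contrast of the treatments. Its fold enrichment was 9.53, 10.2, and 8.24 in the S100A8 TAM replicates and 14.0, 7.36, and 7.34 in the S100A9 TAM replicates. In its promoter window no peak of any strength was listed in the 5 EtOH libraries, although S100A9 EtOH replicate 3 had 1 peak in the gene body. These groups did not overlap. As for MED31, the p of 0.01 (exact permutation test, two-sided, adjusted p = 0.190) restates the pattern for which the gene was chosen. MED27 kept this pattern when every listed peak was counted.

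The other tail genes were called mostly in TAM. MED24 had 1 EtOH and 5 TAM calls, MED30 had 0 and 4, MED15, a target of acidic activators, had 0 and 4, and MED25 had 1 and 3. MED28, MED16, and MED29 had 0 EtOH and 3 TAM calls each. The called summits spanned 11496 bp in MED15, which has 14 TSSs, and 21197 bp in MED16, which has 7, so their calls were not all at 1 promoter. With the 5′ end of the gene alone, MED15 and MED16 had 0 EtOH and 2 TAM calls each. Every MED29 peak also counted for PAF1, an elongation factor gene that starts 169 bp away on the other strand.

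The kinase module had the highest mean of the Mediator modules in both treatments, 25.7% ± 12 (SD, n = 5) of its 7 genes in EtOH and 76.2% ± 14.8 (SD, n = 6) with TAM, and 4 of the 7 genes were called in all 6 TAM libraries. CCNC, which encodes cyclin C, had 1 EtOH and 6 TAM calls, with fold enrichments of 9.38 to 18.5 in TAM. The alternative kinases differed in EtOH, where CDK19 had 3 calls and CDK8 had 1, and had 6 and 5 calls in TAM. All calls of CDK19 depended on TSSs inside the annotated gene, since with the 5′ end of the gene alone CDK19 had 0 EtOH and 0 TAM calls and CDK8 kept 1 and 5. For CDK19 the fold enrichment of the promoter peak was 6.84 to 11.3 in S100A8 EtOH and 6.78 to 8.03 in S100A9 EtOH, and 5.66 to 11.9 in TAM, so the treatments overlapped by enrichment (limma, log2 difference −0.01 ± 0.38, SE, adjusted p = 0.987).

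The module has paralogs of the regulatory subunits as well, and the members of a pair were called unequally. MED12L had 2 EtOH and 6 TAM calls, whereas MED12, which activates the kinase, had 1 EtOH and 1 TAM call. With the 5′ end of the gene alone this order was turned, with 0 EtOH and 0 TAM calls for MED12L and 1 and 1 for MED12. Counted over all libraries of a treatment, MED12 was the one gene of the 49 with a larger share of EtOH than of TAM libraries. This rests on 1 call per treatment, 1 of 5 against 1 of 6, and has no share of all genes beside it. By the mean over the proteins, 1.91% of all genes tested and 0 of 42 of these genes were lower in TAM, and MED12 did not differ. Its called peaks were S100A9 EtOH replicate 3 (fold enrichment 8.54) and S100A9 TAM replicate 3 (7.04), its weaker peaks were S100A8 TAM replicates 1 and 2 (5.13 and 4.93) and S100A9 TAM replicate 1 (5.39), and no peak was listed in the other 6 libraries.

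MED13, which links the kinase module to the core, had 1 EtOH and 6 TAM calls, and its paralog MED13L had 0 and 2. The MED13 summits fell into separate positions, at −859 to −761 bp from a TSS in 5 TAM libraries and at +84 and +94 bp in S100A8 TAM replicate 1 and S100A8 EtOH replicate 2. No test of these differences between paralogs was made.

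With the strongest called promoter peak of each gene in each TAM library, the summit lay a median of 35 bp upstream of the nearest TSS (interquartile range −107.5 to −6.5 bp, 183 peaks), and 77.6% were within 150 bp of it. For all protein-coding genes the median was 65 bp upstream and 66.5% were within 150 bp. The median distance per library was 30 to 64 bp for these genes and 73 to 95 bp for all genes. Among genes called in all 6 TAM libraries, summits spread over a median of 102 bp for the 13 Pol II and Mediator genes and over 249 bp for all 2784 genes.

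**Figure D4:**
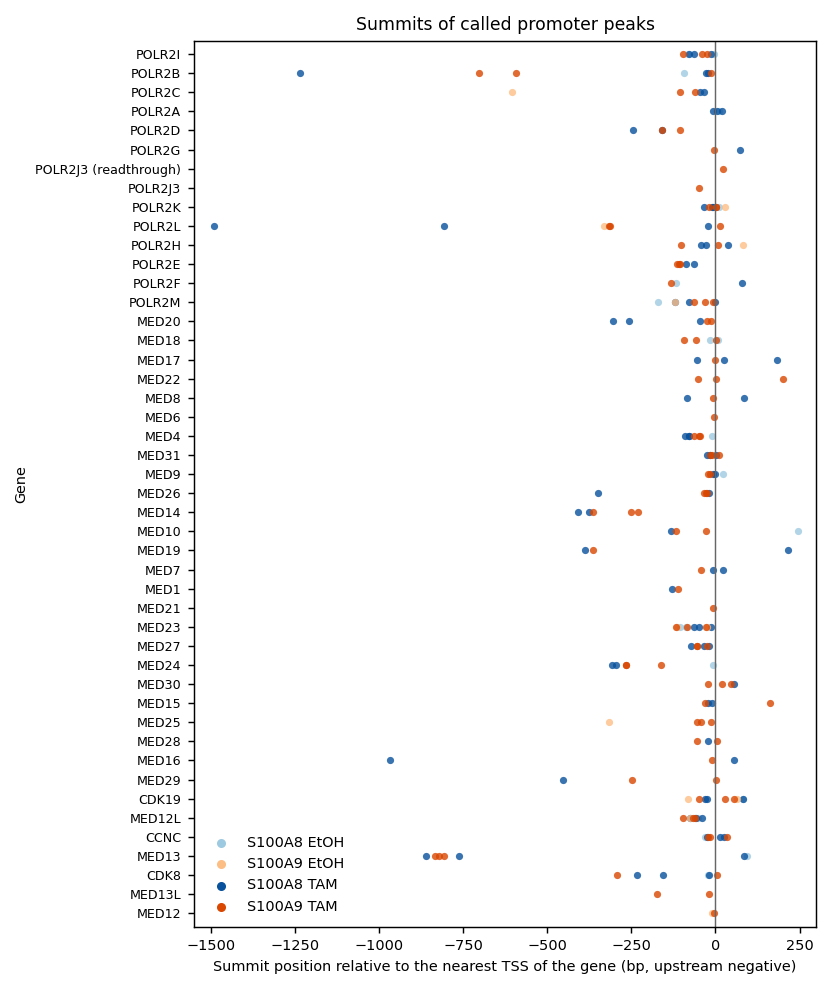
Position of the summit of the strongest called promoter peak (horizontal axis, bp from the nearest TSS of the gene, upstream negative) for the 46 called gene records (vertical axis), with 1 point per library colored by protein and treatment. Most points lie near the TSS, and POLR2B, POLR2L, MED13, and MED16 have summits farther than 700 bp upstream.

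Within a library, the called peaks of these genes mostly ranked lower than those of other promoters in EtOH, and in TAM their middle rank was lower too. The median percentile of fold enrichment within a TAM library was 52.0 to 75.4 for their called peaks, with a middle value of 55.2 over libraries. For the promoter peaks of all genes it was 58.7 to 63.3, with a middle value of 61.5. In EtOH libraries it was 20.9 to 62.5 for these genes (middle value 37.0) and 51.0 to 56.4 for all genes (55.4). These differences were not tested. Calls close to the threshold included MED7 in S100A8 TAM replicate 1 and POLR2D in S100A9 TAM replicate 2 on the inside, each with a −log10 q of about 7.0, and POLR2A in S100A9 EtOH replicate 2, POLR2K in S100A9 EtOH replicate 3, MED10 and MED19 in S100A9 TAM replicate 3, and MED1 in S100A9 TAM replicate 2 on the outside, each with about 6.9. The MED10 peak in S100A8 EtOH replicate 1, 246 bp downstream, was just within the window.

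Peaks shared with a neighboring gene were frequent. At 18 of the 46 called genes (39.1%) the same peak also lay in the promoter window of another protein-coding gene, against 26.2% of all called genes, and the pairs included MED20 with BYSL, MED17 with TAF1D, POLR2I with TBCB, and POLR2F with C22orf23. At these promoters the peak lists do not tell which gene, if either, the peak belongs to.

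Within 50 bp of the summit of the highest-ranked TAM peak, the ETS letters CGGAAG occurred at 17 of 46 genes (37.0%), with both POLR2J3 records counted for 1 peak, and at 17.6% of the 12188 protein-coding genes with a TAM peak. These windows are centered on the summit, so that for POLR2A and CDK19 they differ from the stretches printed above. ETS letters were found at POLR2A, POLR2B, POLR2C, POLR2I, POLR2J3, POLR2K, POLR2M, MED4, MED6, MED14, MED17, MED18, MED21, MED28, MED30, and MED31. The KLF/SP1 letters CCCCGCCC occurred at 5 genes (10.9%, against 13.2%), namely POLR2K, MED9, MED10, MED26, and MED31. The CREB letters TGACGTCA and the AP-1 letters TGACTCA occurred at 0 of 46 genes, against 1.63% and 3.85%. The GC content of these windows had a median of 63.9%, against 67.3% for all genes. These counts describe letters in a window and carry no test.

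Other lists of basic transcription and housekeeping genes had mean shares above that of the Pol II and Mediator genes, a difference that was not tested. In TAM the mean share was 64.5% ± 8.89 for 31 general transcription factor genes, 78.6% ± 6.56 for 21 pausing and elongation factor genes, 74.1% ± 8.36 for 18 genes of Pol I and Pol III, and 66.7% ± 11 for 40 proteasome genes (SD, n = 6 each), compared with 62.2% for the Pol II and Mediator genes. In EtOH these lists had 23.2% ± 4.21, 23.8% ± 13.9, 17.8% ± 6.09, and 18.5% ± 5.76 (SD, n = 5 each), compared with 13.5%. The share called in all 6 TAM libraries was 29.0%, 47.6%, 33.3%, and 22.5% of these lists, compared with 26.5% of the Pol II and Mediator genes. Each of these lists also stood above all protein-coding genes in both treatments.

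**Figure D5:**
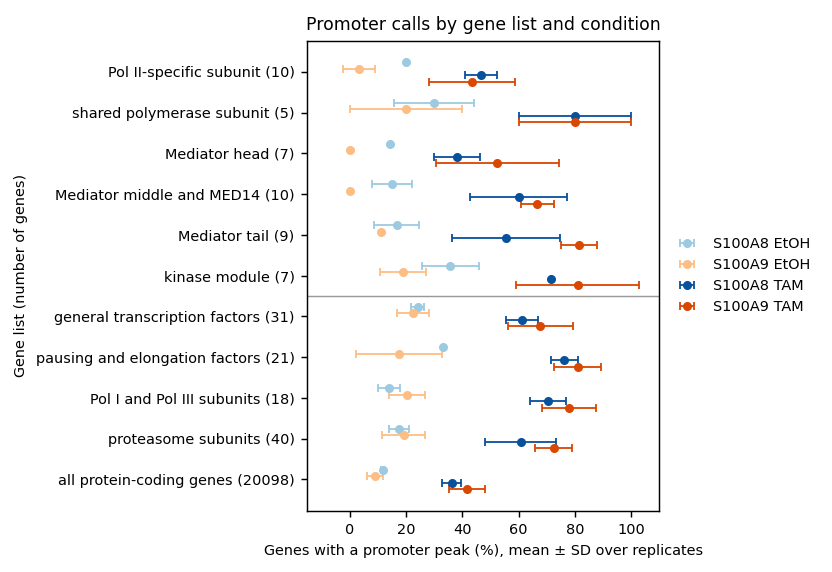
Share of genes with a promoter peak (horizontal axis, percent, mean ± SD over the 2 or 3 replicates of a condition) for the groups of Pol II and Mediator genes, 4 other gene lists, and all protein-coding genes, with the number of genes in parentheses. TAM points lie to the right of EtOH points in every list, and S100A9 EtOH is at 0 for the Mediator head and middle.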

How the data were processed

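ChIP-seq peak lists of 11 S100A8-Flag and S100A9-Flag libraries were analyzed, and Pol II and input libraries were not analyzed here. Per the labels and methods, the authors used Bowtie2 to align reads to hg19, discarded reads without a unique position, and ran MACS2 on every library separately, with chromatin input as the control (versions not given in the sources used here). The deposited lists give each peak's fold enrichment over input (a ratio) and the −log10 of its q value, down to a q of 0.05. The lists hold no reads, so depth per library is unknown, no counting interval is given, and the authors' filter on raw reads was not applied.

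Peaks with q ≤ 1e-07 and a summit within −1500/+250 bp of any protein-coding TSS of GENCODE 44 lifted to GRCh37 were counted as calls (Python 3.11.15, pandas 2.3.3). Groups were taken from sample titles. Calls were compared per gene by an exact permutation test, two-sided, with Benjamini-Hochberg adjustment over 10794 genes, and by limma 3.58.1 (R 4.3.3) as an alternative, both tested on simulated data. Replicate numbers were not treated as pairs, since correlations of centered calls between EtOH and TAM libraries of the same number were −0.0170 to 0.0121 over 5 pairs. Replicates are biological per the labels, and 3 identical regions at most were found between any 2 of them. Sequences are from GRCh37.

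The members and gene lists were chosen with earlier results of these data known. Every gene is named with its call counts, and values per library are given for POLR2A, POLR2B, genes called in all TAM and no EtOH libraries, genes with a larger share of EtOH than TAM calls, and the 3 largest differences between proteins (with a tie). MED23, CDK19, and other genes given in detail were added after their values were seen. Alternatives were other q thresholds, lists of equal length, other TSS rules and windows, 1 replicate, limma, a replicate block, and omission of each library.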

Additional observations from a re-analysis of the deposited data

Results flagged for a closer look

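By calls at the main q threshold, MED18, a Mediator head gene, moved in opposite directions for the proteins in every library. The share of libraries with a promoter call changed by −1 from EtOH to TAM for S100A8 (2 of 2 libraries to 0 of 3) and by 1 for S100A9 (0 of 3 to 3 of 3). Of 20098 protein-coding genes, 2 (0.00995%) had this pattern. The fold enrichment for S100A8 was 6.88 and 5.54 in EtOH and, in TAM, 3.73 and 5.82 in replicates 1 and 3, with no peak listed in replicate 2. For S100A9 it was 5.80, 7.33, and 4.56 in EtOH and 7.37, 8.27, and 6.97 in TAM, so the treatments overlapped by enrichment for both proteins although the calls did not. The opposite changes depended on the threshold. At q ≤ 1e-10, S100A8 had 0 calls in EtOH and 0 in TAM, and S100A9 had 0 and 3. With every listed peak, S100A8 had 2 in EtOH and 2 in TAM, and S100A9 had 3 and 3. In lists of equal length, MED18 had 0 calls in EtOH and 0 in TAM. The other TSS rules and windows tried kept the opposite changes. Whether the change with treatment differed between the proteins was not tested.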

How the results depend on the processing

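Of 74 values recomputed with all libraries, 47 stayed within the error or within 1.5 times the reported value, and 27 did not. With q ≤ 1e-10, genes with a peak in at least 2 replicates numbered 0 for S100A8 EtOH, 19 for S100A8 TAM, and 0 for S100A9 EtOH, and the mean share was 4.08% in EtOH and 45.2% in TAM. With every listed peak, these were 16 for S100A8 EtOH and 25 for S100A9 EtOH, the shares were 50.6% and 85.0%, the difference was 34.4 percentage points in place of 47.4 (the mean over the proteins), and 1 gene was called in all TAM and no EtOH libraries. With the 1853 top peaks of each library, the counts were 0 and 3 for S100A8 EtOH and TAM and 1 and 4 for S100A9 EtOH and TAM, the TAM share was 8.84%, the difference was 1.87 percentage points, and 0 genes were called in all TAM and no EtOH libraries. By the 5′ end of the gene alone, S100A9 EtOH had 1, the TAM share was 48.6%, and the median summit distance was 65.0 bp in place of 50.2 bp, and by the nearest TSS S100A9 EtOH had 1. By the 5′ end alone, CDK19, MED12L, MED24, MED7, and POLR2F lost all of their calls, with 0 in EtOH and 0 in TAM. With 1 replicate sufficient, S100A8 EtOH had 17 and S100A9 EtOH 10. Overlap of peak and window was added after seeing the data and moved none of these summaries by more than these limits.

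With limma, 2746 genes differed between treatments and 3 between proteins. With the replicate number as a block the former was 1988, with 10 of 42 Pol II and Mediator genes, although the numbers do not pair the samples. Without single libraries, the EtOH share ranged from 11.2 to 15.3% and the TAM share from 59.2 to 64.1%, the difference was 44.7 to 48.8 percentage points, and both exact tests made 0 calls. Of these 75 values, 5 moved beyond the limits given above, all of them gene counts. Genes with a peak in at least 2 replicates were 20 to 24 for S100A8 TAM, 0 to 1 for S100A9 EtOH, and 24 to 25 for S100A9 TAM, from fewer replicates, and S100A8 EtOH was left with 1 library and no value. Genes called in all TAM and no EtOH libraries were 2 to 5, with 5 without S100A8 EtOH replicate 2 and 4 without S100A8 TAM replicate 2. The cause of these changes was not tested. Unknown depth limits every comparison of treatments, and the smallest p of 0.01 limits the exact test. Without a library there are fewer arrangements and the smallest p is larger. The 0 calls of the exact tests among the values without single libraries therefore say little about stability.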

Other observations

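Peaks with q ≤ 1e-07 within gene bodies, outside the promoter windows, were counted separately. In TAM, 5 of the 49 genes had such peaks in all 6 libraries (10.2%, against 11.1% of all protein-coding genes), and 24 had none in any (49.0%, against 45.8%). MED15 had the most, with 1 to 6 peaks per TAM library (median 4) and 0 to 2 per EtOH library. MED12L had 2 to 3 peaks in TAM, MED24 had 1 to 4, MED16 had 1 to 3, and CDK19 had 1 to 3, whereas MED16 and CDK19 had none in EtOH. The median length was 21.6 kb for these 49 genes and 27.3 kb for all genes. Which gene a peak within a gene body relates to was not tested.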
